A study of Mus musculus with 42 samples.

Results

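The genes studied encode muscle and general forms of energy enzymes and were followed in iPax7 cells and satellite cells. They were Ckm, Ckb and Ckmt2 (creatine kinases), Pgam1 and Pgam2 (phosphoglycerate mutases), Pfkl and Pfkm (phosphofructokinases), Eno3 (muscle enolase), and Pygb and Pygm (glycogen phosphorylases). They were chosen by name, as 10 of the 24466 gene symbols in the RNA-seq count files, and all 10 passed the filter on low counts. iPax7 cells are muscle precursors grown from mouse embryonic stem cells that carry a Pax7 transgene switched on by doxycycline (Dox). The RNA-seq data cover iPax7 cells kept in 0.75 µg/ml Dox (+Dox, 3 libraries), the same cells 3 days after Dox was removed (-Dox, 2 libraries), and satellite cells, the resident stem cells of skeletal muscle, sorted from Pax7-ZsGreen mice (3 libraries). Peak lists were also used from iPax7 cells 12 h and 24 h after Dox removal, from myotubes that iPax7 cells formed in horse serum medium after growth with Dox, and from C2C12 cells, an established mouse myoblast line. The C2C12 cells were myoblasts in growth medium (untreated, with a Flag control, or with Pax7-Flag) and myotubes in horse serum medium. Neither the age of the mice nor the number pooled is given in the labels. The libraries of a group are separate files of 1 deposited sample, so the p-values measure only the spread between them, which may be technical.

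Muscle fibers break down glycogen and glucose quickly, and many steps of this pathway are carried out by an enzyme form that is encoded by its own gene in muscle. Creatine kinase moves phosphate between ATP and creatine and so buffers ATP during contraction. Phosphorylase releases glucose units from glycogen, phosphofructokinase commits sugar to glycolysis, and mutase and enolase act near its end. In developing muscle the general forms (Ckb, Pgam1, Pfkl, Pygb) are known to be joined or replaced by the muscle forms (Ckm, Pgam2, Pfkm, Eno3, Pygm).

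Promoter sequences of Ckm, Ckmt2, Pgam2, Pygm and Ckb are shown because the first 4 share an E-box while Ckb, the general creatine kinase, has none. Each is the 250 bases before the annotated start, 5′ to 3′ on the gene's strand, from NCBIM37 (mm9). Capitals mark CAGCTG, an E-box of the kind that MyoD and Myog bind. They also mark MEF2 sites and the TATA box, spelled TATAAA. All were searched on both strands. The windows are chr7:19996193-19996442 (plus strand), chr13:92016491-92016740 (minus), chr11:5703737-5703986 (minus), chr19:6384149-6384398 (plus) and chr12:112910550-112910799 (minus).
Ckm: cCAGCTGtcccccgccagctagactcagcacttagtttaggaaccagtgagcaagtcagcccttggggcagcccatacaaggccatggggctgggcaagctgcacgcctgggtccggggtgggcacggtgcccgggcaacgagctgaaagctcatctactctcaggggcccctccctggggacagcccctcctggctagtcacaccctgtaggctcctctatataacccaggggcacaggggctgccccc
Ckmt2: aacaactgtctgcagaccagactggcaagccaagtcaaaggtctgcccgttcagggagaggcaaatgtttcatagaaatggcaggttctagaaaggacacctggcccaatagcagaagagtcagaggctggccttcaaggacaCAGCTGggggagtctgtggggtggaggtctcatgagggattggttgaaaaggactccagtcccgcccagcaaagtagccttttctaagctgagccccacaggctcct
Pgam2: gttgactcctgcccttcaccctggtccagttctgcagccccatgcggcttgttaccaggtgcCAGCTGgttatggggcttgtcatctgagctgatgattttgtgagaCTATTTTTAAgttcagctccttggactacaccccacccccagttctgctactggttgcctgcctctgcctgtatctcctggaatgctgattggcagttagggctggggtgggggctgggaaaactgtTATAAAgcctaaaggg
Pygm: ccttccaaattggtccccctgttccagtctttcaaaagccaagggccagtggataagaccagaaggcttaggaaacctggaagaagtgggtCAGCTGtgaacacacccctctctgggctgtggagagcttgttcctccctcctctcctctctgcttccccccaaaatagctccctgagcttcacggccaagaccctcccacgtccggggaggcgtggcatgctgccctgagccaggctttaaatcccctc
Ckb: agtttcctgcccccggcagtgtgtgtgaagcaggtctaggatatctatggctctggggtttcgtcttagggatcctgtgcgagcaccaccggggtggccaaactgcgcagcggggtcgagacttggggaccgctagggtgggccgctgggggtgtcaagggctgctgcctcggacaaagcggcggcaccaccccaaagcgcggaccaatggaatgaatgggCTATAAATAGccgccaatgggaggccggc

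CAGCTG was found in 4 of the 10 member promoters and in 11.76% of 22354 protein-coding promoters of the same length. The 4 were Ckm (249 bases before the start), Ckmt2 (107 bases), Pgam2 (188 bases) and Pygm (159 bases). The general E-box CANNTG, which includes CAGCTG, was in 7 of the 10 and in 63.13% of all promoters. A MEF2 site was in 2 of the 10 (Pgam2 and Ckb) and in 2.876% of all, and in Ckb its letters overlap the TATA box. TATAAA was in the same 2 members and in 12.2% of all promoters, and a CArG box was in 0 members and 1.329% of all. A match describes the letters only.

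Total counts on genes ranged from 48203901 to 54674619 in the iPax7 libraries and from 39010958 to 43811197 in satellite cells. The induced gene, Pax7, averaged 12833 normalized counts in the +Dox libraries (SD 1261, n = 3). It averaged 245 without Dox (SD 34.6, n = 2), and satellite cells were at 5962 (SD 2331, n = 3). Myog, a regulator of muscle differentiation, was at 4150.4, 174963 and 2452 in the same order. Satellite-cell libraries differed from iPax7 libraries in technical and cellular ways that move with every comparison of satellite cells below. Reads set aside as not unique made up 23.58 to 30.68% of them and 7.11 to 7.6% of the iPax7 libraries. All 6 endothelial markers were higher in satellite cells than in +Dox, with summed levels of 14439 to 21831 against 5.18 to 168, as were 5 of 6 mesenchymal, 4 of 5 tested blood and 5 of 8 neural and Schwann markers. Of the neural and Schwann markers, 1 (Gap43) was lower. Of 8 satellite cell markers, 6 were higher in satellite cells than in +Dox and 1 was lower. Their part in the results was not tested. Adult myofiber markers summed to 422 to 827 in +Dox, 123874 to 134570 in -Dox and 7287 to 11880 in satellite cells. All 10 markers of differentiating muscle were higher and all 6 cycling markers were lower in -Dox than in +Dox, and the cycling markers summed to 8456 to 8688 against 66690.1 to 82531.

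At 3 days after Dox withdrawal, 7 of the 10 genes were higher and 2 were lower, and the muscle form rose for every enzyme (the plot of levels by library). A gene is called here when edgeR's quasi-likelihood test gave it an adjusted p under 0.05 and it changed at least 2-fold. Over all 14836 genes tested, 4.63% were called higher and 3.01% lower. The median log2 fold change was 2.64 over the 10 members and -0.0049 over all genes. These are bulk samples, so more cells of a type and more RNA per cell cannot be told apart.

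**Figure D1:**
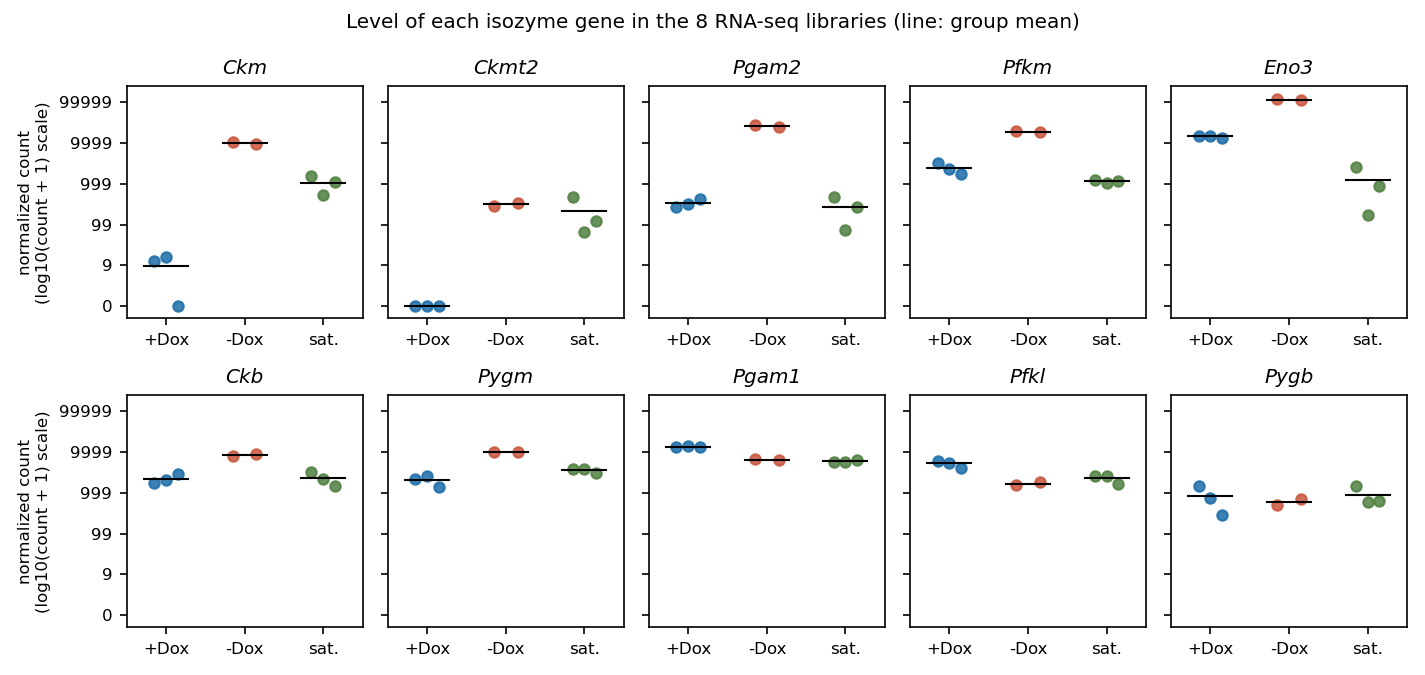
Normalized counts of the 10 genes in each RNA-seq library, on a log10(count + 1) axis, with a point per library and a line at the group mean (sat., satellite cells). The 2 -Dox libraries sit above all 3 +Dox libraries for 7 genes and below them for Pgam1 and Pfkl, and only Pygb overlaps.

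Ckm encodes the cytosolic creatine kinase of muscle and lies on chromosome 7 from 19996443 to 20006932. Its normalized counts were 12.0, 14.8 and 0 in the +Dox libraries, 10700.0 and 9588 in -Dox, and 1535, 525 and 1132 in satellite cells. The 3 groups did not overlap, with -Dox highest and +Dox close to 0. In -Dox against +Dox the log2 fold change was 10.09 (SE 0.958, adjusted p = 0.000283, edgeR). Satellite cells were also higher than +Dox, by 6.84 on the log2 scale (SE 0.84, adjusted p = 0.000244, edgeR), and lower than -Dox by a log2 fold change of -3.25 (adjusted p = 0.00633, edgeR). Ckm, Ckmt2, Pfkl and Pfkm overlap other annotated genes, and whether reads were counted by strand is not given in the sources used here.

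Ckb encodes the general cytosolic creatine kinase and lies on chromosome 12 from 112907566 to 112910549. It had 1754, 2045 and 2878 normalized counts in +Dox, 8172 and 9179 in -Dox, and 3303, 2217 and 1502 in satellite cells. It was thus highest in -Dox, while +Dox and satellite cells overlapped. The general form rose along with Ckm after Dox withdrawal, with a log2 fold change of 1.96 (SE 0.365, adjusted p = 0.0108, edgeR). Satellite cells against +Dox gave 0.07 (SE 0.329, adjusted p = 0.878, edgeR), and satellite cells against -Dox gave -1.89 (adjusted p = 0.00328, edgeR). Of 50-base windows in the Ckb exons, 75.78% occur once in the genome, against 100% for Ckm.

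The mitochondrial creatine kinases sit between the mitochondrial membranes. Ckmt2, the form of striated muscle, had no read in any of the 3 +Dox libraries. In -Dox it had 290.4 and 336 normalized counts, and in satellite cells 462, 64.3 and 125. Against a limit of 3 reads per library, its mean level was at least 130-fold higher in -Dox and at least 90.4-fold higher in satellite cells than in +Dox. The satellite-cell bound holds for the mean, which replicate 1 (462) dominates, and not for each library. The gene passed the filter on low counts only through the groups in which it is high. With no such filter, the comparisons with +Dox gave adjusted p = 0.00225 for -Dox and 0.000519 for satellite cells (edgeR). Satellite cells and -Dox overlapped, with a log2 fold change of -0.53 (SE 0.983, adjusted p = 0.702, edgeR). Ckmt1, the general form, had 237, 201 and 210.4 normalized counts in +Dox, 337 and 191 in -Dox, and no read in any satellite-cell library. By group means, that is at least 54.4-fold lower in satellite cells than in +Dox and at least 66.4-fold lower than in -Dox. Ckmt1 was called in both comparisons, but it passed the filter on low counts only through the iPax7 groups, in which it is high. Its calls therefore add no support of their own. Between -Dox and +Dox, Ckmt1 was not called (log2 fold change 0.29, adjusted p = 0.92, edgeR).

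Pgam2, the muscle phosphoglycerate mutase, lies on chromosome 11 from 5701643 to 5703736. Its normalized counts were 273, 319.9 and 429 in +Dox, 28354 and 25378 in -Dox, and 484, 71.0 and 270.4 in satellite cells. The -Dox libraries stood far above all 6 others, and satellite cells spanned the +Dox range. The log2 fold change was 6.30 in -Dox against +Dox (SE 0.676, adjusted p = 0.000598, edgeR), and satellite cells were lower than -Dox by -6.61 (adjusted p = 0.000148, edgeR). Satellite cells against +Dox gave -0.31 (SE 0.533, adjusted p = 0.67, edgeR), and the sign turned to 0.15 without satellite cells replicate 2.

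Pgam1, the general mutase, lies on chromosome 19 from 41986361 to 41993154 and moved the other way. It had 13194, 13868 and 13634 normalized counts in +Dox, 6644 and 6377 in -Dox, and 5646, 5666 and 6356 in satellite cells. Both -Dox and satellite-cell libraries were below every +Dox library. The log2 fold change was -1.06 in -Dox (SE 0.228, adjusted p = 0.0221, edgeR) and -1.20 in satellite cells (SE 0.20, adjusted p = 0.00125, edgeR). Only 8.869% of 50-base windows in the Pgam1 exons occur once in the genome, so its level relative to Pgam2 (100%) is uncertain.

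Pfkm, the muscle phosphofructokinase, lies on chromosome 15 from 97923020 to 97962878. It had 3239, 2308 and 1785 normalized counts in +Dox, 19335 and 18971 in -Dox, and 1243, 1032 and 1169 in satellite cells. The 3 groups did not overlap. The log2 fold change was 2.97 in -Dox against +Dox (SE 0.297, adjusted p = 0.000375, edgeR), -1.09 in satellite cells against +Dox (adjusted p = 0.00901, edgeR) and -4.06 in satellite cells against -Dox (adjusted p = 3.75e-05, edgeR).

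Pfkl, the liver and general form, lies on chromosome 10 from 77449692 to 77472828. It had 6212, 5479 and 4057 normalized counts in +Dox, 1541 and 1844 in -Dox, and 2638, 2600.4 and 1691 in satellite cells. The +Dox libraries were the highest, and the other groups overlapped. Its log2 fold change was -1.63 in -Dox (SE 0.334, adjusted p = 0.0174, edgeR) and -1.18 in satellite cells (SE 0.286, adjusted p = 0.00866, edgeR), both against +Dox. Pfkp, the platelet form, stood out in satellite cells, with 7746, 14255 and 16185 normalized counts against 704 to 1834 in +Dox and 691 and 800.3 in -Dox. Its log2 fold change against +Dox was 3.26 (SE 0.422, adjusted p = 0.000327, edgeR).

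Eno3, the muscle enolase, lies on chromosome 11 from 70470704 to 70476015. It had 15312, 15301 and 13543 normalized counts in +Dox, 118637 and 112645 in -Dox, and 2588, 173 and 876 in satellite cells. The groups did not overlap. The rise in -Dox had a log2 fold change of 2.97 (SE 0.776, adjusted p = 0.0479, edgeR), and satellite cells were lower than +Dox by -3.60 (adjusted p = 0.00443, edgeR) and lower than -Dox by -6.58 (adjusted p = 0.000517, edgeR). The adjusted p of the rise was 0.129 without +Dox replicate 1, and it was above 0.05 without any one of the 5 iPax7 libraries or without satellite cells replicate 3, with a log2 fold change between 2.92 and 3.02 each time.

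Pygm, the muscle glycogen phosphorylase, lies on chromosome 19 from 6384399 to 6398459. Its normalized counts were 2247, 2625 and 1361 in +Dox, 10249 and 10292 in -Dox, and 3941, 3792 and 3126 in satellite cells. The 3 groups did not overlap. The log2 fold change was 2.31 in -Dox against +Dox (SE 0.312, adjusted p = 0.00216, edgeR) and -1.50 in satellite cells against -Dox (adjusted p = 0.00448, edgeR). Satellite cells against +Dox gave 0.80 (adjusted p = 0.0429, edgeR), which is under 2-fold. Pygb, the brain and general form, had 1456, 761 and 290.5 normalized counts in +Dox, 489.8 and 703 in -Dox, and 1461, 609 and 628 in satellite cells. Its groups overlapped, and it was not called in any comparison (adjusted p = 0.774, 0.904 and 0.51, edgeR). The +Dox libraries were themselves far apart for this gene, with replicate 3 lowest.

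The calls of Pgam1, Pfkl and Ckb after Dox withdrawal depend on single libraries. Pgam1 and Pfkl lost significance without +Dox replicate 1, +Dox replicate 2, -Dox replicate 1 or -Dox replicate 2, and the number of members called lower was then 0. Their direction was kept each time, with log2 fold changes of -1.02 to -1.09 for Pgam1 and -1.49 to -1.75 for Pfkl in those fits. Ckb gave adjusted p = 0.0536, 0.0566 and 0.083 (edgeR) without +Dox replicate 2, -Dox replicate 1 and -Dox replicate 2.

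**Figure D2:**
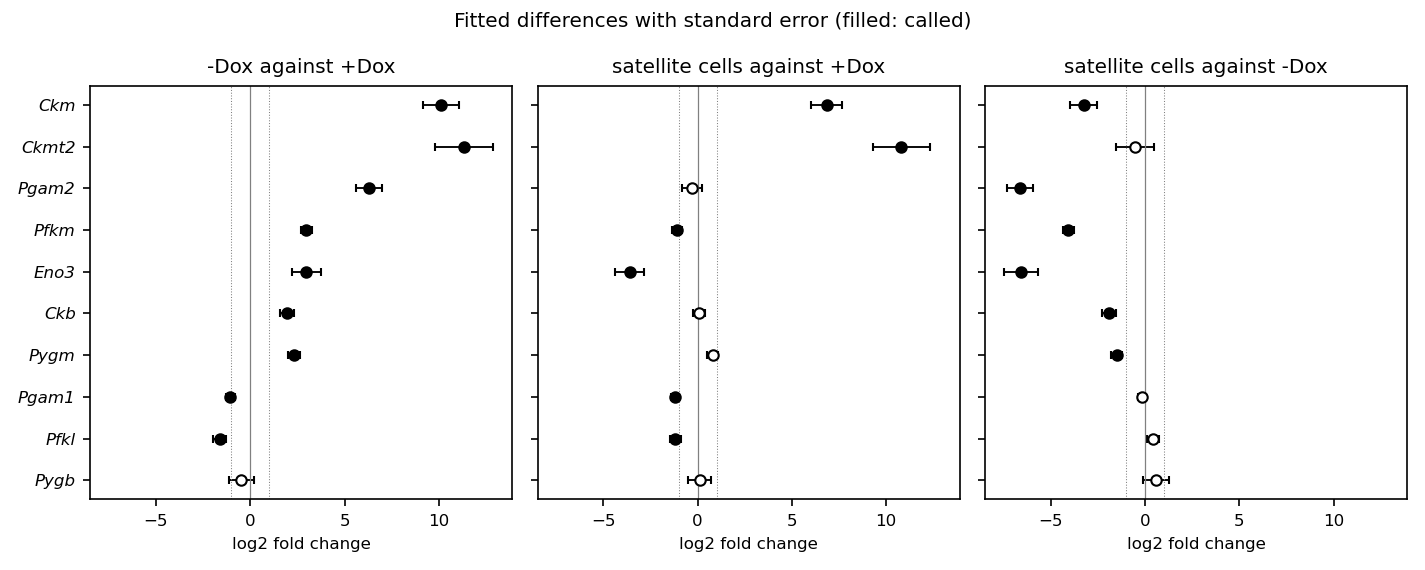
Log2 fold changes of the 10 genes with their standard errors in the 3 comparisons, with filled points for called genes and dotted lines at 2-fold. In -Dox against +Dox the muscle forms lie right of the line, with Ckmt2 (no +Dox read) and Ckm farthest, and in satellite cells against -Dox every called gene lies left.

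Satellite cells and +Dox cells, which both express Pax7, were compared next. Of the 10 genes, 2 were higher in satellite cells (Ckm and Ckmt2) and 4 were lower (Pgam1, Pfkl, Pfkm and Eno3). Over all genes tested, 23.9% were higher and 18.2% lower, so the share of members called higher was near the background. The median log2 fold change was -0.12 over the members and 0.17 over all genes. Satellite cells replicate 1 had the highest level of the 3 for every member except Pgam1, the general forms Ckb, Pfkl and Pygb included. It also had the highest sum of the adult myofiber markers, 11880 against 8077 and 7287. Replicate 3 had the lowest sum but exceeded replicate 2 for Ckm, Ckmt2, Pgam2 and Eno3, though not for Ckb, Pfkl and Pygm. Normalized counts were 1132 against 525 for Ckm, 125 against 64.3 for Ckmt2, 270.4 against 71.0 for Pgam2 and 876 against 173 for Eno3. In satellite cells 5 of the 7 tested adult myofiber markers were higher than in +Dox, and their part in the levels of Ckm and Ckmt2 was not tested. Against -Dox, 6 members were lower in satellite cells (Ckb, Ckm, Pgam2, Pfkm, Eno3 and Pygm) and 0 were higher, with 0 higher also at an unadjusted p under 0.05 and by DESeq2. The background was 17.2% lower and 20.4% higher. These comparisons share libraries, so their counts are not independent.

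The balance within each enzyme was then expressed as the share of the muscle form. For each library, normalized counts were divided by the exon length of the gene, and the share is the muscle form over all forms of the enzyme. The difference between groups was tested with a two-sided exact permutation test, which cannot give p below 0.1 with 3 libraries against 2 or 3. All 18 differences (6 enzymes, 3 comparisons) were tested, and none could pass 0.05.

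Ckm made up 0.711, 0.751 and 0% of cytosolic creatine kinase in +Dox, 57.8 and 52.2% in -Dox, and 32.7, 19.8 and 44.0% in satellite cells. The share was thus near 0 in one Pax7-expressing population and intermediate in the other, while their Ckb levels overlapped. The difference between -Dox and +Dox was 54.5 percentage points, and between satellite cells and +Dox 31.7 points (exact permutation test, p = 0.1 each). Ckmt2 was 0% of mitochondrial creatine kinase in every +Dox library, 59.1 and 74.7% in -Dox, and 100% in every satellite-cell library. In -Dox both genes had reads.

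Pgam2 was 4.32, 4.79 and 6.42% of mutase in +Dox, 90.3 and 89.7% in -Dox, and 15.8, 2.66 and 8.49% in satellite cells. The difference between -Dox and +Dox was 84.8 points (exact permutation test, p = 0.1), and +Dox and satellite cells overlapped (p = 0.5). Both members contributed, since Pgam2 rose from 406 to 31984 and Pgam1 fell from 7409 to 3555 normalized reads per kb. The size of the share is uncertain, since few Pgam1 windows are unique and its reads may be undercounted.

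Pfkm was 40.4, 34.4 and 37.0% of phosphofructokinase in +Dox, 93.7 and 92.5% in -Dox, and 22.2, 13.8 and 15.4% in satellite cells. Pfkl led in +Dox, with 1194 ± 249 normalized reads per kb (SD, n = 3) against 801 ± 241 for Pfkm and 141 ± 61.1 for Pfkp. In -Dox the order was Pfkm (6278 ± 84.3, n = 2), Pfkl (385) and Pfkp (79.4). Pfkp led in satellite cells, with 1355 ± 471 (SD, n = 3) against 526 for Pfkl and 376 for Pfkm. Each of the 3 groups was therefore led by a different gene of this family, although the Pfkl and Pfkm means in +Dox are separated by little more than their spread between libraries. Within each +Dox library Pfkl was above Pfkm, at 1413 against 1062, 1247 against 757 and 923 against 585.

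Pygm was 69.5, 83.7 and 84.8% of phosphorylase in +Dox, 96.9 and 95.6% in -Dox, and 78.6, 89.2 and 87.4% in satellite cells. The muscle form was already the main one in +Dox. The difference between -Dox and +Dox was 16.9 points (exact permutation test, p = 0.1). Pygl, the liver form, was at most 59.2 normalized counts in any iPax7 library and at most 113 in satellite cells.

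**Figure D3:**
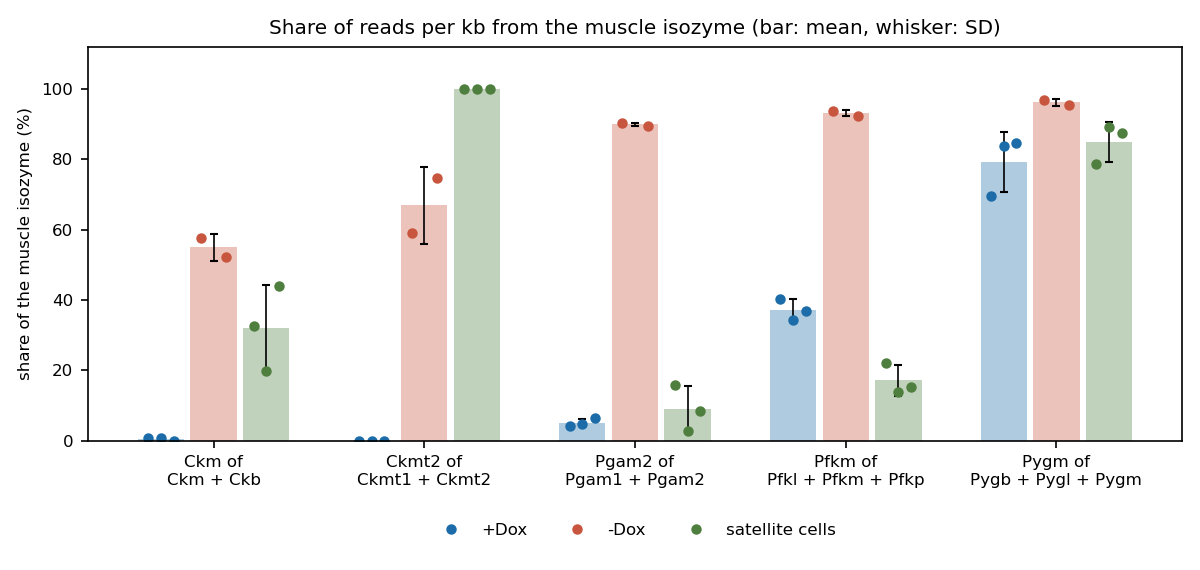
Share of the muscle isozyme among the normalized reads per kb of its enzyme, for 5 enzymes, with a point per library, bars at the group mean and whiskers of 1 SD (3 +Dox, 2 -Dox and 3 satellite-cell libraries). Pgam2 goes from about 5.18% in +Dox to 90.0% in -Dox, and Ckmt2 from 0 to 66.9%, with 100% in satellite cells.

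For enolase the share depends on how a copied gene is treated. Eno1, the general enolase, had only 1.32 to 19.1 normalized counts per library, and Eno2, the neuronal form, 212 to 2055. With these, Eno3 made up 99.2 ± 0.186% in +Dox (SD, n = 3), 99.9 ± 0.0644% in -Dox (SD, n = 2) and 73.4 ± 19.3% in satellite cells (SD, n = 3). Only 32.18% of 50-base windows in the longest Eno1 transcript occur once in the genome, and a near-identical gene, Eno1b, had 23324 to 28584 normalized counts in iPax7 libraries and 1138 to 5135 in satellite cells. When its reads were counted as general enolase, a choice made after seeing the data, Eno3 was 39.9 ± 0.993% in +Dox, 84.8 ± 0.111% in -Dox and 27.9 ± 21.5% in satellite cells. The difference between -Dox and +Dox was then 45.0 points in place of 0.643 (exact permutation test, p = 0.1 either way). With Eno1b the satellite-cell libraries were at 34.0, 3.90 and 45.6% and overlapped the +Dox libraries (exact permutation test, p = 0.5).

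Of 49 other genes of glycolysis, glycogen and creatine metabolism tested, 9 were higher and 1 was lower in -Dox than in +Dox (4.63% and 3.01% of all genes), with a median log2 fold change of 0.37. The 3 with the largest change at high level were Ppp1r3c, a subunit that targets phosphatase to glycogen (12.4 to 1084 normalized counts, log2 fold change 6.42, SE 1.58), Gatm, which makes the precursor of creatine (396 to 14971, log2 fold change 5.24, SE 0.31), and Ugp2, which makes UDP-glucose for glycogen (2787 to 17731, log2 fold change 2.67, SE 0.584). In the +Dox libraries Ppp1r3c ranged from 0.911 to 34.1 normalized counts, and Ppp1r3a, also called higher, had no read. Both passed the filter on low counts only through groups in which they are higher than in +Dox. Their calls therefore add no support of their own. Slc16a1, a lactate transporter, was the gene that fell, from 4354 to 1392 (log2 fold change -1.65, SE 0.256). Without -Dox replicate 1 the 9 higher became 2 and the 1 lower became 0, without -Dox replicate 2 they became 3 and 0, and without +Dox replicate 1 or 2 the higher ones became 3 and 4.

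In satellite cells against +Dox, 16 of the 49 were higher and 14 were lower, where 23.9% and 18.2% of all genes were. These include Ppp1r3d, with no read in +Dox, and Aldoc, with none in satellite cells, whose calls add no support of their own. Slc2a3, a high-affinity glucose transporter, rose from 281 to 6811 normalized counts (log2 fold change 4.60, SE 0.493), and Hk2, the insulin-responsive hexokinase, from 2483 to 25695 (log2 fold change 3.37, SE 0.439). Ak1, the cytosolic adenylate kinase of muscle, fell from 17933 to 929 (log2 fold change -4.27, SE 0.445), as did Ldhb, a lactate dehydrogenase (-2.27), and Pgk1, phosphoglycerate kinase (-1.94). Against -Dox, 12 were higher, near the 20.4% of all genes, and 20 were lower (17.2% of all genes). Pdk4, an inhibitor of pyruvate oxidation, was higher (log2 fold change 3.98, SE 0.54), along with Slc2a3 (5.68), and Gys1, muscle glycogen synthase, was lower (-4.35, SE 0.67), along with Ak1 (-5.53) and Ppp1r3c (-4.30). Without -Dox replicate 1 the 12 and 20 became 7 and 13.

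The genes whose level followed each isozyme most closely over the 8 libraries were found by Pearson's r on log2(normalized count + 1) among 11357 genes. The libraries form 3 groups, so r mostly describes the group means and is given without a p. For Pgam2 these were Myl1 (0.998), Hspb2 (0.994) and Tnnt2 (0.987), of which Myl1 and Tnnt2 encode contractile proteins. For Ckb they were Pacsin3 (0.995), Cav3 (0.987) and Ankrd23 (0.975), and for Ckm they were Enah (0.99), Mllt3 (0.984) and Ogn (0.984). For Pfkl they were Atad2 (0.989), Spag5 (0.98) and Bora (0.979), of which Spag5 and Bora act in mitosis.

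Chromatin at the promoters was read from the deposited peak lists. ATAC-seq marks open chromatin, and 1 list per population was called on merged replicates, so the lists carry no replicate error and were not tested. A promoter was counted as open when a peak overlapped the 1000 bases either side of an annotated start. The background is the share of 22359 protein-coding genes with such a peak. In the iPax7 time course, 8 of the 10 members had a peak in each list, against 63.0% of all genes in +Dox, 61.2% at 12 h, 64.2% at 24 h and 65.4% at 3 days without Dox. The exceptions were Ckm and Ckmt2 in all 4 lists. Both had a peak in myotubes, the fused cells of late differentiation, where 10 of 10 members had one in myotubes from iPax7 cells (background 61.6%) and from C2C12 cells (54.0%).

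Ckm and Ckmt2 were thus without an ATAC-seq peak at the promoter 3 days after Dox removal, when their RNA was already present. This rests on the 1000-base window, most of all for Ckmt2. Its nearest peak lay 5102 bases from the start in +Dox, 1844 at 12 h, 1643 at 24 h and 1434 at 3 days. For Ckm the nearest was 5202 bases away in +Dox and 5250 at 3 days. For Eno3, counted as open, it was 770 bases away in +Dox, 884 at 12 h, 435 at 24 h and 317 at 3 days. In iPax7 myotubes the strongest peaks of Ckm and Ckmt2 had a fold enrichment of 15.9 and 7.11, and in C2C12 myotubes 7.99 and 11.7. The Ckm peak in C2C12 myotubes lay 958 bases from the start, just inside the window. Pgam2, in contrast, had a peak before its RNA rose, with an enrichment of 6.71 in +Dox, 3.04 at 12 h, 5.30 at 24 h, 4.07 at 3 days and 12.3 in iPax7 myotubes. Its enrichment was therefore no higher at 3 days than in +Dox. Of the general forms, Pgam1, Pfkl and Pygb had the strongest peaks of the 10 genes in the +Dox list, at 31.9, 28.2 and 24.8. In the same list the muscle form Pfkm came next at 21.2, and the general form Ckb had the weakest peak, at 3.96. At 3 days Pgam1, Pfkl and Pygb kept enrichments of 24.9, 32.8 and 32.2, although Pgam1 and Pfkl RNA was then lower. Enrichments are compared between lists of unequal depth, which the lists do not give.

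In C2C12 myoblasts the number of members with a peak was near the background. Untreated myoblasts had 4 of 10 (background 44.9%, in the shortest list, of 42700 peaks), myoblasts carrying a Flag control vector had 6 (55.6%) and myoblasts with Flag-tagged Pax7 had 6 (56.7%). In the latter pair, Ckm, Ckmt2, Pgam2 and Pygm were the 4 without a peak. Satellite cells had 6 of 10 (58.4%), also near the background, and there Ckm, Ckmt2, Pgam2 and Ckb were without a peak. Ckm and Ckmt2 RNA was nevertheless present in the satellite-cell RNA libraries, where adult myofiber markers were also measured.

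**Figure D4:**
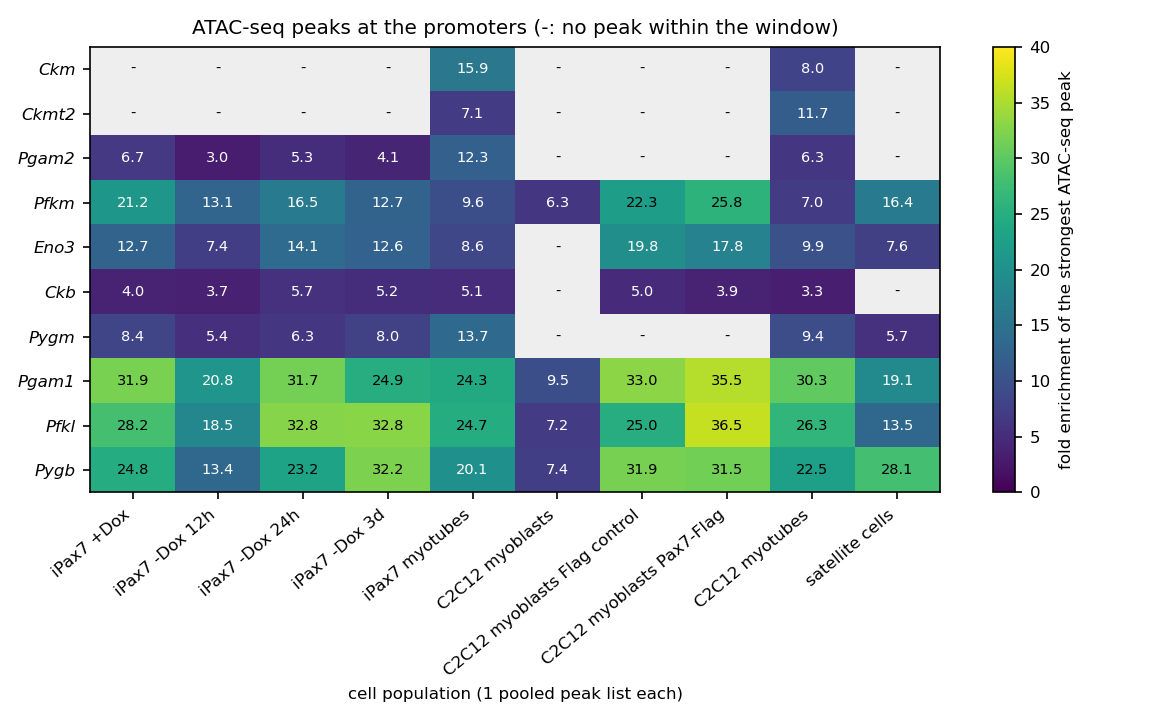
Fold enrichment of the strongest ATAC-seq peak within 1000 bases of a start, for the 10 genes (rows) in 10 cell populations (columns), with a dash where the list has no peak. Ckm and Ckmt2 have peaks only in the 2 myotube lists, while Pgam1, Pfkl, Pfkm and Pygb have a peak in all 10.

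Histone marks at the same promoters also came from merged replicates, and at 3 days H3K4me1 and H3K4me3 were listed at Ckm and Ckmt2, where no ATAC-seq peak was. H3K4me3, a mark of active or poised promoters, was listed at 8 of 10 members in +Dox (background 60.3%) and at 10 of 10 after 3 days without Dox (65.9%). H3K4me1, a mark of enhancers and promoter flanks, likewise went from 8 (61.6%) to 10 (64.8%). In both cases the 2 gained were Ckm and Ckmt2. The -Dox lists of both marks held more regions in all, 214172 against 94067 for H3K4me3 and 243932 against 186990 for H3K4me1. H3K27Ac, a mark of active elements, was at 7 of 10 in both +Dox (48.0%) and -Dox (45.1%), where Ckm was gained, Pygb was lost, and Ckmt2 and Ckb were without it throughout. The H3K27Ac region nearest to the Ckmt2 start was 67764 bases away in +Dox and 1151 in -Dox, just outside the window. H3K27me3, a mark of silenced chromatin, was at 2 of 10 in +Dox (Ckb and Pfkm, background 21.8%) and at 1 in -Dox (Ckb, 19.9%). Within the window, Ckm and Ckmt2 thus carried none of the 4 marks in +Dox. They also carried none there in any of the 8 lists of C2C12 myoblasts with control vector or Pax7-Flag.

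None of the 10 promoters had a Pax7 binding site in +Dox cells, against 1.56% of all genes, so the members were near the background. The nearest of the 2455 sites was 49225 bases from a start of Pygm, 114640 bases from Pgam1 and 204739 bases from Eno3, and the other 7 members were between 407198 and 1611634 bases from one. Distances were not computed for other genes, so these values do not set the members apart.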

How the data were processed

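RNA was sequenced in 8 libraries. Per the submitters' processing notes, which give no roles, the tools were Trimmomatic 0.32, TopHat2 2.0, Bowtie2 2.2, HTSeq 0.6 and edgeR, with build mm9. The deposited values are raw counts of reads per gene symbol, made by the authors without normalization, and rows for reads given to no gene were left out. The read length of the RNA-seq libraries is not given in the sources used here. The authors' ATAC-seq peaks (Bowtie2 2.2.6, Picard, MACS2 2.0.10, replicates merged) carry a fold enrichment, a −log10 p, a −log10 q and a score, as deposited. Histone regions (Qeseq, merged replicates) and Pax7 sites (found in several +Dox and no -Dox replicates) are positions only.

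Counts were tested in edgeR 4.0.16 (R 4.3.3) with TMM, filterByExpr (14836 genes kept), quasi-likelihood tests over all 8 libraries and Benjamini-Hochberg adjustment. Normalized counts are counts scaled from each library's effective size to the geometric mean of all 8, and a fitted fold change of a gene with no read in a group depends on a prior count. Shares used union exon lengths from NCBIM37 (the same assembly as mm9) in Python 3.11.15 with numpy 2.4.6. In simulated data for 13384 genes, the test called 42% of the genes changed 4-fold and 99% of those changed 16-fold. Alternatives were DESeq2 1.42.0, RLE, other filters, fits on the groups compared with and without a replicate block, each library left out, other lengths, other promoter windows and a stricter q. Replicate numbers come from the deposited files.

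The members, gene lists and tests were chosen with earlier results of these data known. Named genes are the members, the other forms of their enzymes, Pax7 and Myog, the 3 largest called changes per direction in a list of other glycolysis, glycogen and creatine genes (libraries not overlapping, mean of at least 1000 in the higher group), and the 3 genes most like Ckm, Ckb, Pgam2 and Pfkl (mean of at least 100).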

Additional observations from a re-analysis of the deposited data

How the results depend on the processing

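Of 182 recomputed counts of calls, 163 stayed within 1.5 times the value given, and of 414 recomputed log2 fold changes 387 kept their direction and call, 19 lost the call and 8 changed sign. The sign changes were all in genes not called. Ckb in satellite cells against +Dox was -0.032 with the replicate block and ranged from -0.26 to 0.31 with a library left out. Pygb ranged from -0.89 to 0.19 in -Dox against +Dox and from -0.43 to 0.73 in satellite cells against +Dox, and Pgam2 from -0.99 to 0.15 in the latter. With a library left out, members called lower in -Dox ranged from 0 to 2, and list genes from 2 to 10 higher and 0 to 2 lower. Satellite cells against -Dox gave 7 to 13 higher and 13 to 21 lower list genes. The 1 list gene lower in -Dox became 3 with DESeq2, 2 with only the compared groups and 6 with the replicate block. Samples with the same number did not deviate together (r from -0.04 to 0.03), so these values show no pairing. With 2 or 3 libraries a group, they cannot tell whether libraries were prepared together. With at least 10 counts in every library, Ckm and Ckmt2 were not tested, and 0 members were higher in satellite cells than in +Dox.

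Without division by length, the -Dox minus +Dox share differences were 55.0 points (Ckmt2), 78.0 (Pgam2), 61.7 (Pfkm) and 1.77 (Eno3), and those of satellite cells minus -Dox were 45.0 (Ckmt2), -76.1 (Pgam2), -81.2 (Pfkm) and -46.1 (Eno3). Eno3 in satellite cells minus +Dox was -44.4. With the longest transcript they were 57.1 (Ckmt2), 58.3 (Pfkm) and 1.02 (Eno3) for -Dox minus +Dox, and 42.9 (Ckmt2) and -80.4 (Pfkm) for satellite cells minus -Dox. With Eno1b, chosen after seeing the data, the Eno3 differences were 45.0, -12.0 and -57.0 points for -Dox minus +Dox, satellite cells minus +Dox and satellite cells minus -Dox. With a library left out, the Ckmt2 difference ranged from 59.1 to 74.7 points (-Dox minus +Dox) and from 25.3 to 40.9 (satellite cells minus -Dox). H3K27me3 in +Dox was at 1 member with 250 bases either side of the start and at 4 with 5000, and in -Dox at 5 with 5000. The other 45 of 48 peak counts stayed within 1.5 times. The causes of these shifts were not tested. With 2 or 3 libraries a group, many 4-fold changes would be missed, as in the simulated data, and shares cannot reach p under 0.05.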
